A study of Mus musculus with 6 samples.

Results

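The mouse mitochondrial genome encodes 37 genes, and all 37 were found among the 51826 gene symbols of the count files by the mt- prefix of their names. They comprise 13 messenger RNAs, 22 transfer RNAs and 2 ribosomal RNAs. They were counted in 6 RNA-seq libraries of basal cells sorted from mammary glands of pubertal mice. Cells that carried GFP (GFPpos) and cells without it (GFPneg) were taken by sorting out of 3 pools, each made of 2 to 3 mice, which gave 3 libraries a group. All mice, also those that gave the GFPneg cells, were C57B6/N animals of the genotype SMAcreERT2/N1ICD. They carry a tamoxifen-inducible Cre under a smooth muscle actin promoter and an N1ICD allele, named for the Notch1 intracellular domain. All had 1 dose of tamoxifen at postnatal day 21 and were used 72 hours later, at day 24. GFPpos and GFPneg cells therefore shared genotype and treatment, and no library of labelled cells without the allele was analysed here.

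The mitochondrial genome is a small circle read from both strands as long precursor RNAs. Transfer RNAs lie between most of the other genes, and their excision releases the messenger and ribosomal RNAs. The 13 messenger RNAs encode core subunits of the respiratory chain and of ATP synthase, and the 2 ribosomal RNAs form the mitochondrial ribosome that translates them. All remaining subunits, and the polymerase that transcribes the circle, are encoded in the nucleus. Copies of mitochondrial DNA have also been inserted into nuclear chromosomes, where many are annotated as pseudogenes.

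The genes differ in how closely such copies match them, and 3 stretches of 75 bases, the length of the reads, show the range. The first compares mt-Co2, which encodes a catalytic subunit of complex IV (cytochrome c oxidase) (chrM:7313-7387, plus strand) with the pseudogene Gm28661 (chr1:24615191-24615265, minus strand). The second compares mt-Co1, the other catalytic subunit (chrM:5628-5702, plus strand) with Gm13340 (chr2:22589273-22589347, minus strand). The third compares mt-Cytb, the cytochrome b of complex III (chrM:14445-14519, plus strand) with Gm11410 (chr4:80004289-80004363, plus strand). All sequences are GENCODE M21 transcripts on mm10 (GRCm38), and capitals mark bases that differ within a pair.
mt-Co2: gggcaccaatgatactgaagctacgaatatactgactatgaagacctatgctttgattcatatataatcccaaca
Gm28661: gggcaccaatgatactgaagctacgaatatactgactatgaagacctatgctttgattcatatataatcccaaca
mt-Co1: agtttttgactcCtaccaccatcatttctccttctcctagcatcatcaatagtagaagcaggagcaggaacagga
Gm13340: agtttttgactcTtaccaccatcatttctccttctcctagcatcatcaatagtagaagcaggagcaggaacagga
mt-Cytb: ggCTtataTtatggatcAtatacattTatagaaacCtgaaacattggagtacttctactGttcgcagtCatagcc
Gm11410: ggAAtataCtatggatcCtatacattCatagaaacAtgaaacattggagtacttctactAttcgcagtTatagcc
The mt-Co2 stretch is identical to its copy, the mt-Co1 stretch differs from its copy at 1 base (C313T, counted from the first base of the gene), and the mt-Cytb stretch differs at 8 bases.

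Only 7 of the 13 messenger RNAs were counted in every library, and these 7 held 99.97% of the 381548 messenger RNA counts. They were mt-Nd1, mt-Nd2, mt-Nd4, mt-Nd5 and mt-Nd6, which encode subunits of complex I (NADH dehydrogenase), with mt-Cytb and mt-Co1. Over all 6 libraries they had between 7860 counts (mt-Nd6) and 111632 counts (mt-Cytb). The other 6 messenger RNAs had 96 counts together. mt-Atp6 and mt-Atp8, the mitochondrially encoded subunits of ATP synthase, had 37 and 6 counts over all libraries. The complex IV genes mt-Co2 and mt-Co3 had 19 and 14 counts, the complex I gene mt-Nd3 had 20, and mt-Nd4l, another subunit of complex I, had 0 in every library. A count of 0 allows up to 3 counts, or 0.153 to 9.79 CPM (counts scaled to a common library size, with TMM factors) depending on the library.

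**Figure D1:**
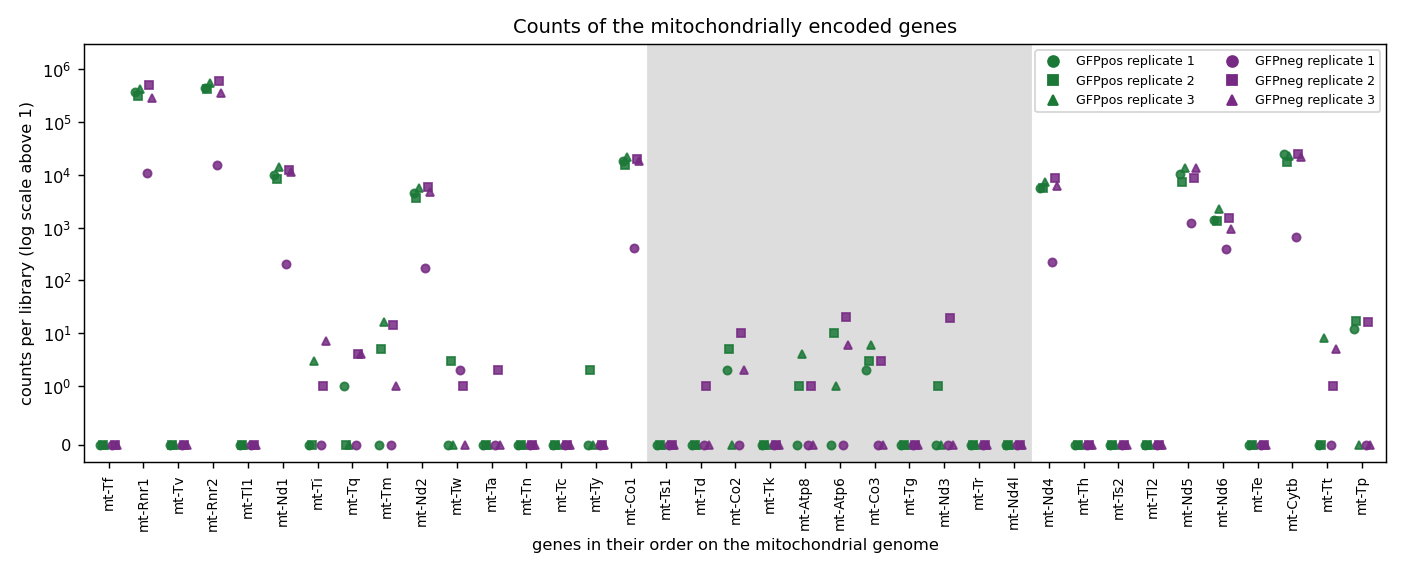
Counts of the 37 mitochondrially encoded genes in each library, on an axis that is logarithmic above 1 count, with the genes in their order on the mitochondrial genome (GFPpos left of GFPneg within each gene). The grey band spans the 11 genes that lie wholly within the stretch matched by pseudogenes on chromosome 1, where the highest total over the 6 libraries was 37 counts.

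The 6 low messenger RNAs are neighbours on the genome and lie inside 1 stretch that is matched by pseudogenes on chromosome 1. Within bases 6390 to 11042 of the mitochondrial genome, a stretch of 4653 bases, 7 annotated pseudogenes of chr1:24611535-24616188 match on the minus strand. The chromosome 1 sequence between these pseudogenes, opposite most of mt-Atp8 and of the 5 transfer RNAs, was not compared. mt-Co2 aligned with Gm28661 over 681 bases, mt-Atp6 with Gm10925 over 678 bases, mt-Co3 with Gm28437 over 783 bases and mt-Nd4l with Gm10222 over 294 bases, each without a mismatch. mt-Nd3 and Gm28438 differed at 1 of 345 bases. All 6 low messenger RNAs and 5 transfer RNAs lie wholly inside the stretch, while mt-Co1 and mt-Nd4 reach across its edges. Outside it the lowest messenger RNA total was 7860 counts.

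The share of 75-base windows of a gene that occur unchanged in another annotated gene was highest for most genes of that stretch. It was 97.8% to 99.9% for mt-Co2, mt-Atp6, mt-Co3, mt-Nd3 and mt-Nd4l. It was 61.5% for mt-Nd4, which is identical to Gm28439 over its first 876 bases, and 39.8% for mt-Co1. It was 0% for mt-Nd1, mt-Nd6, mt-Cytb, mt-Rnr1 and mt-Rnr2, 1.66% for mt-Nd5 and 5.71% for mt-Nd2. mt-Atp8 was the exception, with 6 counts and 0 of its 130 windows found in an annotated gene. It lies between mt-Co2 and mt-Atp6, whose copies on chromosome 1 are spaced as on the mitochondrial genome, and the chromosome 1 sequence between those copies was not used here. The deposited files hold 0 reads in the row for reads with more than 1 alignment, and how such reads were treated is not given in the sources used here. The part of the nuclear copies in the low counts was not tested.

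**Figure D2:**
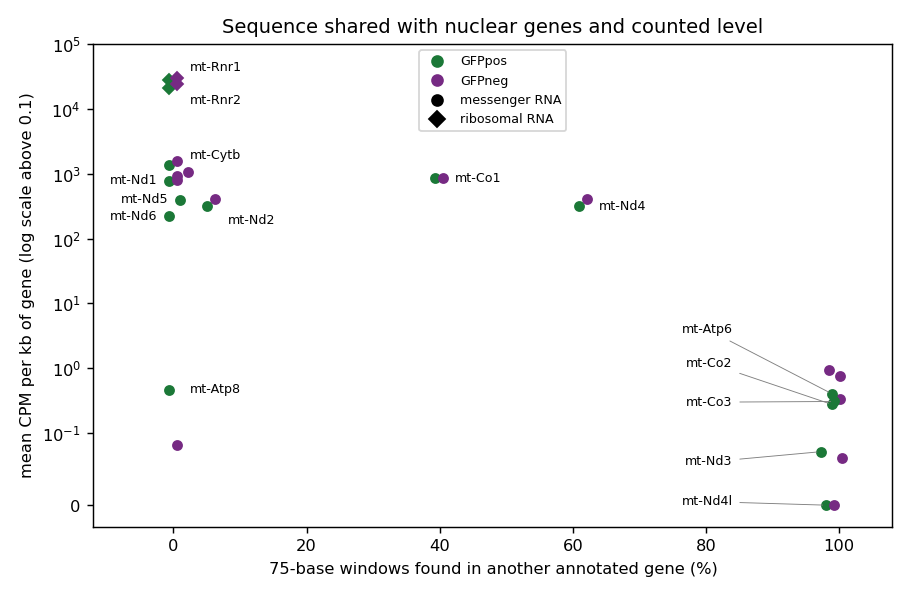
Share of 75-base windows found unchanged in another annotated gene (horizontal axis, %) against the mean CPM per kb of gene in each group (vertical axis, logarithmic above 0.1), for the 13 messenger and 2 ribosomal RNAs. Genes at 97.8% and above sit below 1 CPM per kb, as does mt-Atp8 at 0%, and the other genes lie at 222 CPM per kb or above.

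The nuclear copies themselves held few counts. Of the annotated pseudogenes that matched a member, only Gm13340, a copy of mt-Co1 on chromosome 2, had more than 100 counts over the 6 libraries, with 345. It had 38, 65 and 86 counts in GFPpos replicates 1, 2 and 3, and 1, 80 and 75 in GFPneg replicates 1, 2 and 3. Gm28661, the identical copy of mt-Co2, had 32 counts in all. Gm20594, a protein-coding annotation on chromosome 6 that is 88.5% identical to 435 bases of mt-Rnr2, had 490 counts. Cep295, a gene on chromosome 9 with a retained-intron transcript that matches short stretches of transfer RNA genes, had 2601 counts.

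Transfer RNAs were close to absent from the counts. Of 22 genes, 13 had 0 counts in every library, and the other 9 had 126 counts together. GFPpos replicates 1, 2 and 3 held 13, 27 and 27 transfer RNA counts, and GFPneg replicates 1, 2 and 3 held 2, 40 and 17. Of all gene counts these were 0.000123%, 0.000240% and 0.000171% in GFPpos and 0.000327%, 0.000249% and 0.000171% in GFPneg libraries. The pair log2 ratios of this share were -1.41, -0.06 and -0.01 (mean -0.49, exact permutation p = 0.2). Without GFPneg replicate 1, whose share rests on 2 counts, the log2 ratio was -0.27 (exact permutation p = 0.4). The genes are 59 to 75 bases long, and 21 of the 22 are shorter than a read of 75 bases. mt-Tp, the transfer RNA for proline (chrM:15356-15422, minus strand), had the most counts of them, 12, 17 and 0 in GFPpos and 0, 16 and 0 in GFPneg libraries. mt-Tm, that for methionine (chrM:3845-3913, plus strand), had 0, 5 and 16 in GFPpos and 0, 14 and 1 in GFPneg libraries. Both are shown whole, as the 2 transfer RNAs with the most counts.
mt-Tp: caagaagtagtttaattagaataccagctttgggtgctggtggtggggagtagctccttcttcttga
mt-Tm: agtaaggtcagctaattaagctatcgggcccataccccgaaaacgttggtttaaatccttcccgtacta
Neither set of counts separated the groups, and mt-Tp, the only transfer RNA that passed the filter on low counts, had an adjusted p of 1.00 (edgeR's quasi-likelihood test).

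The libraries differed in depth, which sets the precision of the members. GFPpos libraries held 10549065 to 15825199 gene counts. GFPneg replicate 1 held 611465 and the other GFPneg libraries 9912610 and 16043492. Mitochondrially encoded genes held 796238 to 1044186 counts in GFPpos libraries, 29429 in GFPneg replicate 1 and 702760 and 1185001 in the other GFPneg libraries. In GFPneg replicate 1, 69.2% of gene counts lay in 5 abundant noncoding features, mt-Rnr1 and mt-Rnr2 among them, against 22.7% to 34.7% in the other libraries. Each of the 7 messenger RNAs rests on 168 to 1241 counts there. The fold changes of mt-Nd5 and mt-Nd6, the shares of the RNA classes and the median of the nuclear genes are given with and without this library, and levels per kb are given only with it. Markers of the labelled cell type were present, with the 11 basal markers at 11728 to 13756 summed CPM (of counts outside the 5 features) in GFPpos and 14871 to 23746 in GFPneg libraries. Markers of other cells were lower. The 8 fibroblast markers (Lum at 0 throughout) summed to 384 to 599 CPM in the GFPpos and 1115 to 2427 in GFPneg libraries, and the 6 pericyte markers to 258 to 964 and 69.0 to 199. The 8 endothelial markers summed to 1292 to 3689 in GFPpos and 844 to 2066 in GFPneg libraries, the 11 luminal markers to 1073 to 1722 and 568 to 1189, and the 7 immune markers (Adgre1 at 0) to 8.998 to 28.8 and 11.05 to 53.1. The part of these cells in the members' values was not tested.

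Ribosomal RNA made up most of the mitochondrial counts. mt-Rnr1 and mt-Rnr2, the ribosomal RNAs of the small and the large mitochondrial ribosomal subunit, held together 91.5%, 92.6% and 91.6% of the mt- total in GFPpos replicates 1, 2 and 3, and 88.8%, 93.1% and 89.1% in GFPneg replicates 1, 2 and 3. The group means were 91.9% ± 0.613 in GFPpos and 90.3% ± 2.41 in GFPneg cells (SD, n = 3 each). The difference was within the spread of the GFPneg libraries (log2 ratio 0.03, exact permutation test, two-sided p = 0.4, and 0.01 with p = 0.8 without GFPneg replicate 1). With 3 libraries against 3 the smallest p that this test can give is 0.1. Per kb of gene, mt-Rnr1 stood at 27407 ± 6353 CPM in the GFPpos and 29938 ± 5781 CPM in the GFPneg libraries, and mt-Rnr2 at 21201 ± 3651 and 23752 ± 6982 CPM. mt-Rnr2 had 1.29 ± 0.0890 counts for each count of mt-Rnr1 in GFPpos and 1.30 ± 0.123 in GFPneg cells, a ratio that did not differ beyond its spread (exact permutation p = 1).

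Ribosomal RNA of the mitochondria took 7.62%, 6.54% and 6.05% of all gene counts in GFPpos replicates 1, 2 and 3, and 4.27%, 6.88% and 6.32% in GFPneg replicates 1, 2 and 3. GFPneg replicate 1 was the lowest of the 6 libraries (95% Wilson interval 4.22% to 4.32%, counting error only). Set against the counts outside the 5 abundant features the same library was the highest: GFPpos libraries had 7.83 to 11.7 counts per 100, against 13.9 in GFPneg replicate 1 and 9.10 and 8.24 in the other GFPneg libraries. The log2 ratio was 0.23 on the first scale (exact permutation p = 0.5) and -0.10 on the second (p = 0.7), so that its direction depended on the denominator. Without GFPneg replicate 1 the log2 ratio on the first scale was 0.025 (exact permutation p = 0.9). With reads of no feature and ambiguous reads in the denominator it was 0.58 (exact permutation p = 0.4). In these sorted pools fewer cells of a type and less RNA per cell cannot be told apart.

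Messenger RNA of the mitochondria took 0.706%, 0.520% and 0.551% of gene counts in GFPpos replicates 1, 2 and 3, and 0.540%, 0.508% and 0.770% in GFPneg replicates 1, 2 and 3. The group means were 0.592% ± 0.09998 in GFPpos and 0.606% ± 0.143 in GFPneg cells (SD, n = 3 each). The groups overlapped, and the pairs went both ways, with log2 ratios of 0.39, 0.03 and -0.48 in replicates 1, 2 and 3 (mean -0.02, exact permutation p = 0.9). Without GFPneg replicate 1 the log2 ratio was -0.09 (exact permutation p = 0.7). It was -0.36 outside the 5 abundant features (exact permutation p = 0.7) and 0.32 with reads of no feature and ambiguous reads in the denominator (p = 0.6).

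**Figure D3:**
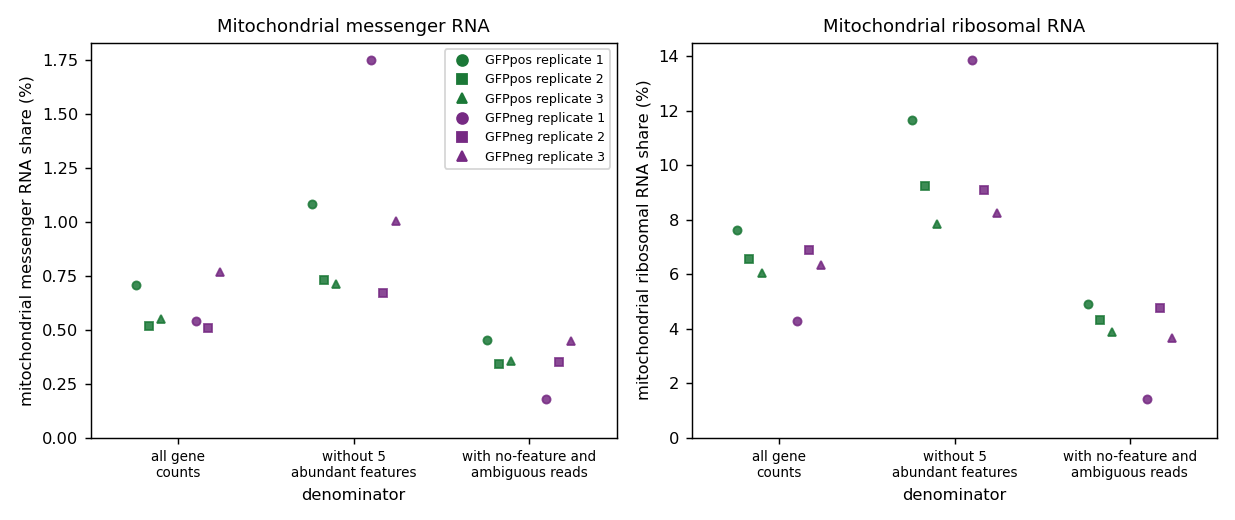
Mitochondrial messenger RNA (left) and ribosomal RNA (right) of each library in percent of 3 denominators: all gene counts, the counts outside 5 abundant noncoding features, and gene counts with reads of no feature and ambiguous reads. GFPneg replicate 1 is the highest point on the second denominator and the lowest on the third in both panels.

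No mitochondrially encoded gene passed edgeR's quasi-likelihood test between GFPpos and GFPneg cells. Of the 37, 10 passed the filter on low counts, and 0 of them were called at an adjusted p below 0.05, against 0.0649% of all 13873 genes tested (9 genes). With DESeq2 0 members were called, where 156 of 14573 genes were. At an unadjusted p below 0.05 there were 2 of the 10, mt-Nd5 and mt-Nd6, against 5.26% of all genes tested. Without the filter on low counts both were called lower in GFPpos cells, in a fit that called 1.22% of 24729 genes. Without both libraries of replicate 3, mt-Nd6 was called lower, where 0.568% of 14075 genes were called in either direction. Of the 10, 9 had negative log2 fold changes (median -0.17, against 0.15 over all genes tested), while with scaling to library size alone 6 were positive (median 0.16, against 0.31 over all genes). Without replicate 1 and with the replicate number as a block, 0 of 12 members were called, where 3.92% of 15346 genes were. That fit holds 2 pairs and few residual degrees of freedom. In CPM the 2 groups overlapped for all 10 members, while 13.2% of the genes tested did not overlap.

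mt-Nd6 and mt-Nd5 differed most, and both differences came with GFPneg replicate 1. mt-Nd6, the subunit of complex I that is the 1 messenger RNA read from the opposite strand (chrM:13552-14070, minus strand), stood at 125, 102 and 118 CPM in GFPpos replicates 1, 2 and 3, and at 1290, 78.1 and 85.1 CPM in GFPneg replicates 1, 2 and 3. GFPneg replicate 1 was far above all other libraries, and the remaining GFPneg libraries were below all 3 GFPpos libraries. The log2 fold change was -2.04 (SE 0.81, adjusted p = 0.839, edgeR's quasi-likelihood test). Without GFPneg replicate 1 it was 0.52 (SE 0.27, adjusted p = 0.642), with the direction reversed. It was -0.67 with the replicate block and -1.08 with scaling to library size alone (adjusted p = 1.00 in both fits).

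mt-Nd5, a proton-pumping subunit of complex I whose gene overlaps the end of mt-Nd6 by 14 bases, stood at 912, 566 and 688 CPM in GFPpos replicates 1, 2 and 3, and at 4052, 442 and 1222 CPM in GFPneg replicates 1, 2 and 3. Again GFPneg replicate 1 was the highest, and the groups overlapped. The log2 fold change was -1.40 (SE 0.59, adjusted p = 0.843, edgeR's quasi-likelihood test), and -0.18 (SE 0.39, adjusted p = 0.971) without GFPneg replicate 1. It was -0.87 with the replicate block and -0.68 with scaling to library size alone (adjusted p = 1.00 in both fits). The strand setting of the counting is not given, so that reads of mt-Nd6 and of RNA from the other strand of the same region cannot be told apart.

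The remaining 7 genes counted in every library had log2 fold changes between -0.39 (mt-Nd2, SE 0.38) and -0.0038 (mt-Co1, SE 0.37), all smaller than or close to their SE. mt-Co1 was nearly level, with a mean of 1330 ± 294 CPM in the GFPpos libraries and 1333 ± 308 CPM in the GFPneg libraries (SD, n = 3 each). mt-Cytb averaged 1581 ± 561 and 1792 ± 474 CPM, mt-Nd1 746 ± 124 and 775 ± 230 CPM, mt-Nd2 326 ± 65.7 and 430 ± 121 CPM and mt-Nd4 435 ± 68.6 and 571 ± 139 CPM. Their adjusted p was 1.00 in each case (edgeR).

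**Figure D4:**
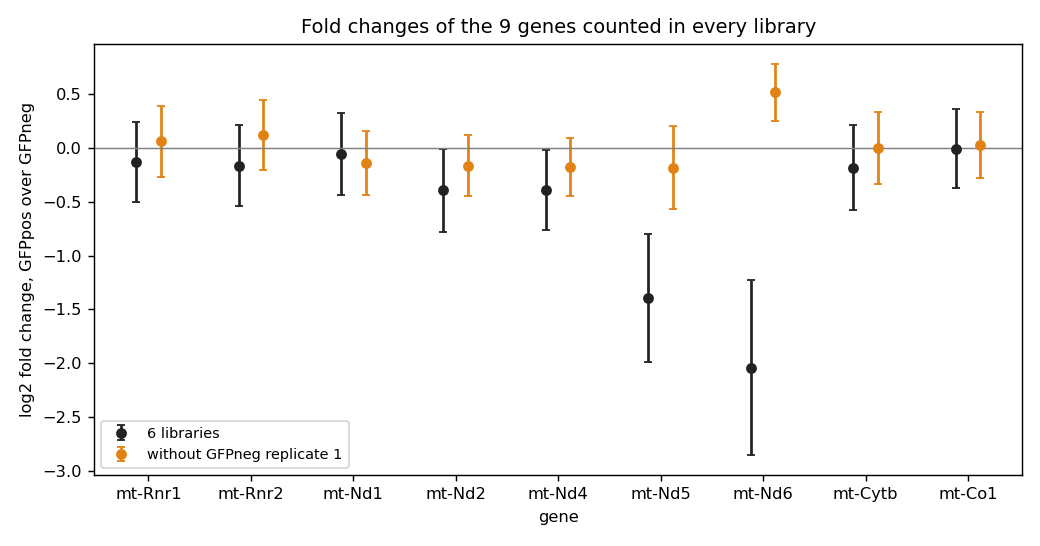
Log2 fold change of GFPpos over GFPneg cells with its SE (bars) for the 9 mitochondrially encoded genes counted in every library, from edgeR with all 6 libraries and without GFPneg replicate 1. mt-Nd6 lies at -2.04 with all libraries and at 0.52 without GFPneg replicate 1, mt-Nd5 at -1.40 and at -0.18, and the other genes lie between -0.39 and 0.12 in both fits.

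Within the messenger RNA total the order of the genes was alike in 5 libraries. The shares of mt-Nd5 (10.6% to 17.6%) and mt-Nd6 (1.23% to 2.62%) varied among these 5. mt-Cytb held 26.4% to 33.1% in GFPpos libraries and 30.2% and 28.2% in GFPneg replicates 2 and 3, and mt-Co1 24.8% to 26.0% and 24.4% and 23.6%. The order of the 7 genes was the same in these 5 libraries except that mt-Nd5 and mt-Nd1 changed places. mt-Nd5 held 12.5% to 15.3% in GFPpos libraries, against 37.6% in GFPneg replicate 1, where it ranked first (95% Wilson interval 35.9% to 39.2%), and 10.6% and 17.6% in the other GFPneg libraries. mt-Nd6 held 1.87% to 2.62% in GFPpos libraries, against 11.96% in GFPneg replicate 1 (10.9% to 13.1%) and 1.87% and 1.23% in the other GFPneg libraries. The other 5 genes had their lowest share in GFPneg replicate 1, with mt-Cytb at 20.1%, mt-Co1 at 12.5%, mt-Nd4 at 6.63%, mt-Nd1 at 6.12% and mt-Nd2 at 5.09%. The counting intervals of all 7 shares in that library did not reach the range of the values in the other 5 libraries. For mt-Nd2 (4.39% to 5.89%) the interval overlapped that of GFPpos replicate 1 (5.81% to 6.15%). The same held for mt-Nd4 (5.83% to 7.53%, against 7.36% to 7.74% in GFPpos replicate 1).

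**Figure D5:**
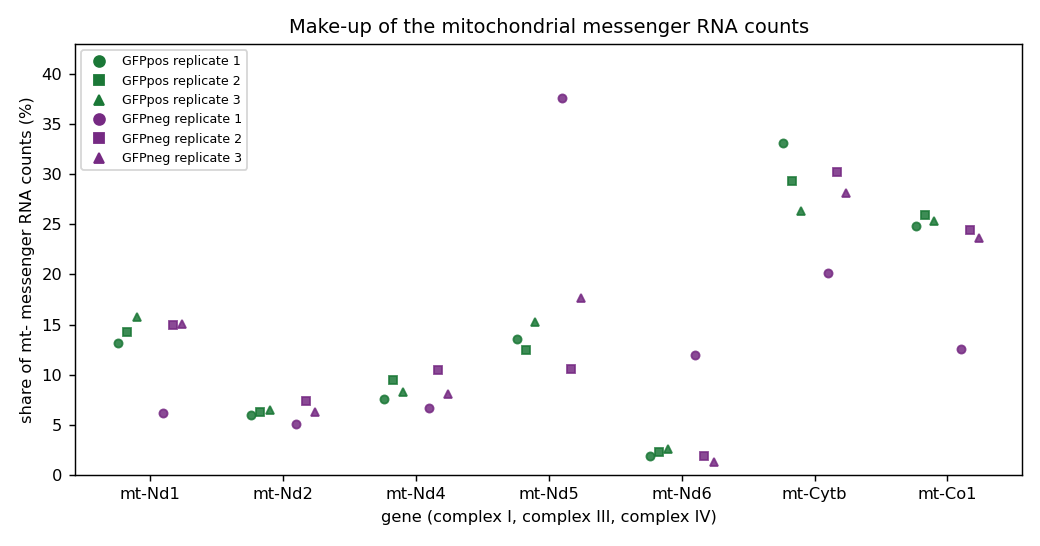
Share of the mitochondrial messenger RNA counts (%) held by each of the 7 messenger RNAs counted in every library, with 1 point per library (GFPpos left of GFPneg). GFPneg replicate 1 is the highest point at mt-Nd5 (37.6%) and mt-Nd6 (11.96%) and the lowest at the other 5 genes, as at mt-Cytb (20.1%) and mt-Co1 (12.5%).

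Each gene's share of the mt- total was compared between the groups for the 9 genes counted in every library. The groups did not overlap for 1 of 9, mt-Nd4, where 11.0% of all genes tested did not overlap in counts per mt- count. mt-Nd4 held 0.640%, 0.696% and 0.686% in GFPpos replicates 1, 2 and 3, and 0.744%, 0.722% and 0.878% in GFPneg replicates 1, 2 and 3. It was lower in GFPpos cells of all 3 pairs (log2 ratio -0.21, SD of the pairs 0.15, exact permutation p = 0.1, the smallest this design can give). The interval of the GFPneg replicate 1 value, on 219 counts, ran from 0.652% to 0.849% and took in 2 of the GFPpos values. mt-Nd2 was also lower in all 3 pairs (log2 ratio -0.21, exact permutation p = 0.3). Set against messenger RNA alone, both had log2 ratios of 0.02 (exact permutation p = 0.8 for mt-Nd2 and 0.9 for mt-Nd4).

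The other shares of the mt- total went both ways across the pairs. The pair log2 ratios of mt-Nd5 were -1.87, 0.33 and -0.59 in replicates 1, 2 and 3, and those of mt-Nd6 -3.08, 0.36 and 0.71. Without GFPneg replicate 1, mt-Nd6 was higher in all 3 GFPpos libraries (0.158% to 0.219%) than in the other GFPneg libraries (0.129% and 0.133%), a comparison of 3 libraries with 2 whose exact permutation p of 0.1 is the smallest it can give and in which 23.8% of all genes tested did not overlap. Within the messenger RNA total mt-Co1 was the 1 gene of 7 without overlap, at 24.8% to 26.0% in GFPpos and 12.5% to 24.4% in GFPneg libraries (exact permutation p = 0.1), where 7.60% of all genes tested did not overlap in counts per messenger RNA count. The counting intervals of its nearest libraries, GFPpos replicate 1 (24.5% to 25.1%) and GFPneg replicate 2 (24.1% to 24.7%), overlapped.

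The levels of the genes relative to one another changed with the length used. Per kb of gene mt-Cytb had the highest mean of the messenger RNAs, at 1382 ± 490 CPM per kb in GFPpos and 1567 ± 414 CPM per kb in GFPneg cells. mt-Co1 stood at 861 ± 190 in GFPpos and 863 ± 199 in GFPneg cells, and mt-Nd1 at 780 ± 130 and 809 ± 240. mt-Nd5 stood below both in GFPpos cells, at 396 ± 96.1, and at 1044 ± 1041 in GFPneg cells. mt-Nd6 stood at 222 ± 22.6 in GFPpos and 933 ± 1344 in GFPneg cells. In GFPneg replicate 1 alone, mt-Nd6 and mt-Nd5 were above mt-Cytb, at 2485 and 2221 against 1895 CPM per kb. mt-Nd4 (316 ± 49.8 and 414 ± 101) was level with mt-Nd2 (314 ± 63.3 and 414 ± 117). All counts of a gene were also set against the 75-base window starts that no other annotated gene holds. This scale assumes that no read of the other windows was counted, which was not tested. Per kb of such starts, mt-Co1 stood at 1502 ± 332 CPM in the GFPpos and 1506 ± 348 CPM in the GFPneg libraries. It was level there with mt-Cytb (1478 ± 524 and 1675 ± 443). mt-Nd4 stood at 867 ± 137 and 1137 ± 277 on this scale, close to mt-Nd1 (845 ± 141 and 877 ± 260) and above mt-Nd2 (359 ± 72.3 and 473 ± 134). The lowest in GFPpos cells of the 7 genes counted in every library was mt-Nd6, at 259 ± 26.4 CPM per kb of such starts, against 1088 ± 1567 in GFPneg cells, where GFPneg replicate 1 sets the mean.

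The nuclear genes of the same machinery were taken from 9 lists, of which 216 genes were tested. In edgeR's test 0 were higher and 0 lower in GFPpos cells, where 0.0649% of all 13873 genes tested were called. Of the 216, 3 had an unadjusted p below 0.05, against 5.26% of all genes tested. Atp5b, the catalytic beta subunit of ATP synthase, stood at 594, 470 and 490 CPM in GFPpos replicates 1, 2 and 3, and at 167, 423 and 236 CPM in GFPneg replicates 1, 2 and 3, without overlap (log2 fold change 0.90, SE 0.41, adjusted p = 0.938). Polg2, the accessory subunit of the mitochondrial DNA polymerase, had a log2 fold change of -2.99 (SE 1.24, adjusted p = 0.843), with 0.451 to 9.04 CPM in GFPpos libraries, against 78.4 CPM in GFPneg replicate 1 and 7.51 and 9.98 CPM in the other GFPneg libraries. Mtrf1, a mitochondrial translation release factor, stood at 8.57, 5.27 and 6.05 CPM in the GFPpos libraries and at 0, 1.02 and 0 CPM in the GFPneg libraries (log2 fold change 3.72, SE 1.59, adjusted p = 0.843, edgeR). Its 0 in GFPneg replicate 1 allows up to 9.79 CPM, above each GFPpos value, and that in GFPneg replicate 3 up to 0.272 CPM.

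The list medians were above that of all genes (log2 0.15) for 8 of the 9 lists. For biogenesis regulators this was only 0.153 against 0.147. Nuclear subunits of complexes I, III, IV and ATP synthase had median log2 fold changes of 0.48, 0.52, 0.22 and 0.40, with 29 of 36, 9 of 9, 8 of 11 and 12 of 16 positive. The 4 subunits of complex II, which has no mitochondrially encoded subunit, had a median of 0.52. Mitochondrial ribosomal proteins had 0.72 (65 of 75 positive), RNA processing and translation factors 0.43 (26 of 37), biogenesis regulators 0.15 (7 of 12) and transcription, replication and nucleoid factors 0.04 (9 of 16). Over all genes tested 7976 of 13873 were positive. Over all nuclear genes of the lists the median was 0.46, and 0.29 without GFPneg replicate 1, against 0.15 and 0.04 over all genes. The log2 ratio of CPM + 1 of the ribosomal protein genes had medians of 3.01, 0.04 and 0.77 in replicates 1, 2 and 3, against 1.34, -0.03 and 0.05 over all genes, where 1 count in GFPneg replicate 1 equals 3.26 CPM. In replicate 2 the medians for complexes I, II, III, IV and ATP synthase were -0.21, -0.039, -0.17, -0.34 and -0.039. These were below all genes, as were transcription, replication and nucleoid factors (-0.12). RNA processing and translation factors (0.01) and biogenesis regulators (0.02) were above all genes there.

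Of a fixed set of genes, the groups overlapped in CPM for each regulator of mitochondrial RNA, while 13.2% of all 13873 genes tested did not overlap. The subunits Cox4i1, Sdha and Ndufs1 of the set overlapped as well, and Atp5b did not. Polrmt, the mitochondrial RNA polymerase, averaged 12.2 ± 4.18 CPM over the GFPpos and 10.2 ± 9.01 CPM over the GFPneg libraries. Tfam, which packages the mitochondrial genome and starts its transcription, averaged 20.2 ± 5.25 and 22.2 ± 17.6 CPM. Tfb2m, of the list of transcription, replication and nucleoid factors, averaged 5.72 ± 1.86 and 5.65 ± 5.96 CPM. Lrpprc, which stabilises mitochondrial messenger RNAs, averaged 42.4 ± 11.6 and 18.1 ± 15.7 CPM (log2 fold change 1.09, SE 0.70, adjusted p = 1.00, edgeR), and its partner Slirp 4.52 ± 2.76 and 2.497 ± 2.67 CPM. Elac2, which cuts the 3′ ends of the transfer RNAs, averaged 27.6 ± 7.22 and 21.9 ± 18.6 CPM, and the coactivator Ppargc1a 3.50 ± 3.25 and 3.86 ± 5.57 CPM. In the fit of replicates 2 and 3 with the block, 1 of 220 nuclear genes of the lists was called, against 3.92% of all genes tested. It was Mrps30, a mitochondrial ribosomal protein gene. It had 31.2 and 18.5 CPM in GFPpos replicates 2 and 3, and 19.5 and 0 CPM in GFPneg replicates 2 and 3.

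Over the 6 libraries the nuclear genes whose log2(CPM + 1) was most like that of the mitochondrial messenger RNA total were Iqub, Armcx2, Adgrg2, Stk3 and Slbp (Pearson's r 0.97 to 0.99 over 6 libraries, a description that rests on libraries of unequal depth). All 5 were highest in GFPneg replicate 1, as Armcx2 with 63.4, 56.0 and 54.0 CPM in the GFPpos and 91.4, 51.6 and 69.1 CPM in GFPneg replicates 1, 2 and 3.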

How the data were processed

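The 6 libraries were made from total RNA of basal cells sorted from mammary glands and read as pairs of 75 bases. For every library the authors deposited raw counts, as whole numbers, of the reads of each gene symbol. The submitters' processing notes name mm10 as the build and TopHat2, HTSeq, cutadapt and FastQC as tools. The sources used here give no versions, counting mode or strand setting. Members were the symbols starting with mt-. The members and lists were chosen with earlier results of these data known. Rows that name no gene did not enter the library sizes; reads of no feature were 28.8% to 66.4% of reads counted or listed as of no feature or ambiguous. The test was edgeR 4.0.16 under R 4.3.3 (quasi-likelihood, TMM, filterByExpr, group as the only term), with Benjamini-Hochberg adjustment over all genes and a threshold of 0.05. CPM are counts over TMM-scaled library sizes. The SE was the unshrunk log2 fold change divided by the square root of F. Shares were compared on the log2 scale with exact two-sided permutation tests over libraries. No p adjusted over the members is given. With group as the only term, p-values measure spread between the libraries of a group, each made from a different pool of mice. Sequences and positions came from GENCODE M21 on GRCm38. Members were aligned to all M21 transcripts with blastn 2.17.0, and their 75-base windows were searched on both strands of the best-matching transcript of each other gene. The scripts were tested on simulated data.

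Per the series' design text, GFPpos and GFPneg cells with 1 number share a pool, which pairs them. Across genes, their deviations from the group means had correlations of -0.036 (replicate 1), 0.12 (replicate 2) and -0.0013 (replicate 3). Across the members tested alone, the correlations were -0.39, 0.77 and -0.12 in replicates 1, 2 and 3. The alternatives were a replicate block, DESeq2 1.42.0, other scaling and filters, and leaving out libraries. The text names all members and a fixed set of regulators and subunits. It also names the 2 genes with the smallest p of each nuclear list where they bear on a statement. Nuclear copies with more than 100 counts and the 5 genes most like the messenger RNA total are named as well. Mrps30 was named after its values were seen.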

Additional observations from a re-analysis of the deposited data

How the results depend on the processing

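In GFPneg replicate 1, 1 count equals 3.26 CPM, which limits what its low genes can show. With no filter on low counts 2 members were called in edgeR's test, mt-Nd5 (log2 -1.37) and mt-Nd6 (-2.01), where 1.22% of all genes were, and without replicate 3 there was 1, mt-Nd6 (-2.57), where 0.568% of all genes were. With any single library left out there were 0 calls of members and 0 in the nuclear lists. Those fits called few genes, from 3 of 14729 (without GFPpos replicate 3) to 92 of 15274 (without GFPneg replicate 1). With the replicate block 0 members were called, where 61 of 13873 genes were. In that fit mt-Co1, mt-Nd5 and mt-Nd6 had log2 fold changes of 0.0015, -0.87 and -0.67. With the block and without replicate 1 mt-Nd6 stood at 0.45. The block changed no call of a member. The log2 ratio of the messenger RNA share was 0.32 with reads of no feature and ambiguous reads in the denominator, -0.36 outside the 5 abundant features and -0.15 to 0.16 with single libraries left out. That of the ribosomal RNA share was 0.58 and -0.10 with these denominators. Members without overlap in their share of the mt- total numbered 1, against 1 to 3 of 9 with single libraries left out, where 15.7% to 31.3% of all genes did not overlap, and 4 of 9 without replicate 1, where 38.7% did not. By the pairs of the replicate block, 2 of 9 members had ratios of 1 sign, against 31.0% of all genes.

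With scaling to library size alone, log2 fold changes were 0.20 (mt-Rnr1), 0.215 (mt-Rnr2), 0.17 (mt-Nd1), 0.27 (mt-Co1) and 0.15 (mt-Cytb). Scaled to mitochondrial messenger RNA they were 0.20, 0.22, 0.25, 0.33 and 0.18, and 1.9e-05 for mt-Nd2. The median of all genes was 0.31 and 0.36 in these fits. mt-Co1 was at 0.017 with the 5 features left out of the scaling and at 0.014 with no filter. Against messenger RNA the share ratios were 0.017 (mt-Nd2), 0.020 (mt-Nd4) and 0.19 (mt-Cytb). For shares of the mt- total, the ratios without replicate 1 were -0.054 (mt-Rnr1), -0.15 (mt-Nd1), -0.045 (mt-Co1) and 0.54 (mt-Nd6). The mt-Nd6 fold change without replicate 1 was 0.46. Without replicate 3 the fold changes of mt-Nd1, mt-Co1 and mt-Cytb were 0.25, 0.27 and 0.057. With single libraries left out the fold changes ran from -0.18 to 0.17 (mt-Co1), -0.48 to 0.000165 (mt-Cytb), -0.18 to 0.22 (mt-Nd1), -2.55 to 0.52 (mt-Nd6), -0.31 to 0.062 (mt-Rnr1) and -0.28 to 0.12 (mt-Rnr2). The ratios of shares of the mt- total ran from -0.024 to 0.41 (mt-Co1), -0.16 to 0.13 (mt-Cytb) and -0.17 to 0.45 (mt-Nd1). They ran from -1.24 to 0.45 (mt-Nd6), -0.027 to 0.077 (mt-Rnr1) and -0.0012 to 0.051 (mt-Rnr2). The cause was not tested.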
